A study of Pan paniscus with 11 samples.

Results

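Integrins are cell surface receptors that join the extracellular matrix to the actin cytoskeleton. Each receptor is a heterodimer of an alpha and a beta subunit, and the pair of subunits sets which ligand is bound. In fibroblasts, receptors built on ITGB1 bind collagens, laminins and fibronectin, whereas those built on ITGAV bind proteins with an RGD motif such as vitronectin and fibronectin, and also latent TGF-beta. The genes described here are the alpha subunits ITGA2 (collagen and laminin receptors), ITGA3 (laminin receptors), ITGA4 (receptors for fibronectin and VCAM1), ITGA5 (the fibronectin receptor), ITGA7 (a laminin receptor known from skeletal and smooth muscle) and ITGAV, and the beta subunits ITGB1, ITGB3 and ITGB5. These 9 genes were listed by name, and all probe sets annotated to 1 of them were taken. There were 18 such probe sets among the 12625 on the array. Where a gene had several, they are called A, B and C in descending order of their mean log2 intensity over the arrays.

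The cells were cultured fibroblasts of bonobos (Pan paniscus), profiled on an Affymetrix human array with 1 array per culture. Male line 1 was also grown in a culture taken for RNA at 50% confluence. The other 10 cultures were 1 each of 5 male and 5 female lines, described as from normal animals and as grown and harvested in a standard way. The animals behind male lines 1 to 5 were 4, 2, 12, 17 and 19 years old, and those behind female lines 1 to 5 were 9, 2, 4, 20 and 20 years old. Values are intensities as deposited, on a linear scale, with those under 100 raised to 100, which is called the floor below.

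Trimmed mean intensities of the 11 arrays ran between 408 and 423, and 52.1% to 60.9% of probe sets were above the floor. Each of the 11 fibroblast markers that the array covers exceeded the floor in every culture, and the median intensity of endothelial, blood cell and epithelial markers was at the floor. Some of these markers were above it in all 11 cultures, among them, named after their values were seen, ENG (1495 to 3574 in the standard lines, endothelial), KRT8 (624 to 1091) and KRT10 (287 to 703, both epithelial), and CD68 (144 to 703) and CD3E (118 to 290, both blood cell). The 18S rRNA controls were bright in the 50% confluence culture (1508 to 2611), against readings of 146 to 313 for male line 4 and 100 to 171 for the remaining 9 standard lines. The ratio of 3' to 5' signal of the ACTB control was 0.669 in the 50% confluence culture and 2.27 in male line 4. It was 0.853 to 1.44 in the other standard lines, and its part in the values of male line 4 was not tested. The lowest deposited intensity was 90 in male line 5 and in the 50% confluence culture, and 100 in the other 9 arrays. Because each array read the RNA of a whole culture, fewer expressing cells and less RNA per cell cannot be told apart.

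Of the 18 integrin probe sets, 8 were above the floor in all 11 cultures, whereas 4 were above it in no more than 2. Over all non-control probe sets, 36.2% were above the floor in all 11. The 12 probe sets above the floor in at least 5 cultures entered the tests and stood for 8 of the 9 genes. ITGA2 was the gene left out: its probe set B was at the floor in every culture, and its probe set A read 104 in female line 5 and the floor elsewhere. Since the probes follow human sequences, a probe set at the floor gives only an upper bound on the intensity and does not show that a bonobo gene is silent. Probe sets of a gene can also differ in how well they bind, so no level was set against that of another probe set.

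The common beta subunit ITGB1 was read by probe set A at an intensity of 9020 in the 50% confluence culture, 6088, 7706, 7974, 8635 and 6566 in male lines 1 to 5, and 6430, 9006, 9137, 8937 and 8715 in female lines 1 to 5. Its highest line was 1.5 times its lowest, and its SD of log2 intensity over the 10 standard lines was 0.22, larger than that of 5.4% of the tested probe sets. ITGB1 probe set B read 104 in male line 1, 101 in female line 4 and the floor elsewhere.

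ITGB5, the beta subunit that pairs with ITGAV in a vitronectin receptor, was also present throughout. By probe set A its intensity was 7811 in the 50% confluence culture, 6365, 4895, 6896, 4189 and 6281 in male lines 1 to 5, and 4220, 4880, 5044, 6311 and 4936 in female lines 1 to 5. By probe set B it was 4582 in the 50% confluence culture, 3890, 4383, 5257, 3029 and 4796 in male lines 1 to 5, and 3069, 3756, 3247, 4027 and 2862 in female lines 1 to 5. The probe sets ordered the lines similarly (Pearson r = 0.78 over 10 lines), with male line 3 the highest by both, and had SDs of 0.26 and 0.30 on the log2 scale.

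ITGB3, which pairs with ITGAV in another RGD receptor, was read near the floor by all 3 of its probe sets. Probe set A gave an intensity of 122 in the 50% confluence culture and 100 to 200 in the standard lines, with a median of 132. By probe set B it was at the floor in the 50% confluence culture, 101 to 131 in male lines and 100 to 286 in female lines. The 286 was that of female line 5, and the SD of this probe set over the standard lines was 0.47 with that line and 0.21 without it. Probe set C was above the floor in 4 cultures, at up to 145. The tested pair ran in opposite directions across the 10 lines (r = -0.54), so these low readings do not give 1 order of the lines.

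ITGAV also had probe sets that did not order the lines alike. By probe set A its intensity was 766 in the 50% confluence culture, 455, 722, 401, 447 and 376 in male lines 1 to 5, and 360, 272, 527, 452 and 529 in female lines 1 to 5. By probe set B it was 274 in the 50% confluence culture, 359, 338, 373, 385 and 390 in male lines 1 to 5, and 353, 450, 536, 362 and 299 in female lines 1 to 5. The correlation between them was r = -0.30 over 10 lines: female line 2 was the lowest standard line by probe set A but above all others except female line 3 by probe set B. ITGAV probe set C, drawn in the annotation from the same source sequence as probe set B, read 109 in female line 3 and the floor elsewhere.

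Among the alpha subunits, ITGA5 was read at 2138 in the 50% confluence culture, 2902, 1518, 1899, 942 and 2647 in male lines 1 to 5, and 1365, 2655, 2281, 893 and 2081 in female lines 1 to 5. Male line 4 and female line 4 stood below the other lines, and the highest line was 3.25 times the lowest.

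ITGA7 varied most among the probe sets that were above the floor in every culture. Its intensity was 1423 in the 50% confluence culture, 1249, 380, 577, 2246 and 1310 in male lines 1 to 5, and 2336, 344, 554, 795 and 1155 in female lines 1 to 5. The highest line, female line 1, was 6.79 times the lowest, female line 2. The SD on the log2 scale was 0.98, larger than that of 97.7% of the tested probe sets.

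As ITGA7 is known from muscle, muscle markers are given beside it. The summed intensity of 7 smooth muscle genes was 39262 in the 50% confluence culture, 11166 to 59988 in male lines and 23481 to 39874 in female lines. The sum was highest in male line 5 and lowest in male line 3, which were not the ends of the ITGA7 range. MYH11, the smooth muscle myosin gene of that list, named after its values were seen, read 3997 in the 50% confluence culture, 874, 100, 100, 1567 and 626 in male lines 1 to 5, and 6163, 195, 680, 100 and 378 in female lines 1 to 5. Its highest standard lines, female line 1 and male line 4, were also those of ITGA7, and female line 2 and male line 2, the lowest for ITGA7, read 195 and the floor. DES, the desmin gene, was at the floor in every culture. Of the other genes of the list, CNN1 was highest among the standard lines in female line 3 (1033) and CALD1 in male line 4 (2819). ACTA2 (21614), TAGLN (32430) and SMTN (3750) were highest in male line 5. The sum was mostly that of ACTA2 and TAGLN. The sum over 8 skeletal muscle genes lay between 871 and 1446, and its highest value, in female line 3, went with an ITGA7 intensity of 554. Of these genes 2 to 4 were above the floor in each culture, and the others added the floor value. The part of these markers in the spread of ITGA7 was not tested.

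ITGA3 had a few lines well above the rest. Probe set A gave an intensity of 735 in the 50% confluence culture, 720, 570, 284, 532 and 1711 in male lines 1 to 5, and 394, 480, 484, 429 and 1281 in female lines 1 to 5. Male line 5 and female line 5 were the highest of their sex. The same lines were highest by probe set B, which is drawn from the same source sequence, at 835 and 434. This probe set was at the floor in male lines 3 and 4 and in female lines 2, 3 and 4. Across the 10 lines the pair had r = 0.89, and their SDs of 0.79 and 1.13 were larger than those of 93.9% and 98.8% of the tested probe sets.

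ITGA4 lay low. Its probe set A gave an intensity of 275 in the 50% confluence culture, 100, 171, 283, 100 and 149 in male lines 1 to 5, and 300, 189, 237, 209 and 183 in female lines 1 to 5. It was at the floor in male lines 1 and 4 and above it in all 5 female lines. Probe set B was above the floor in 4 cultures, at up to 159.

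**Figure D1:**
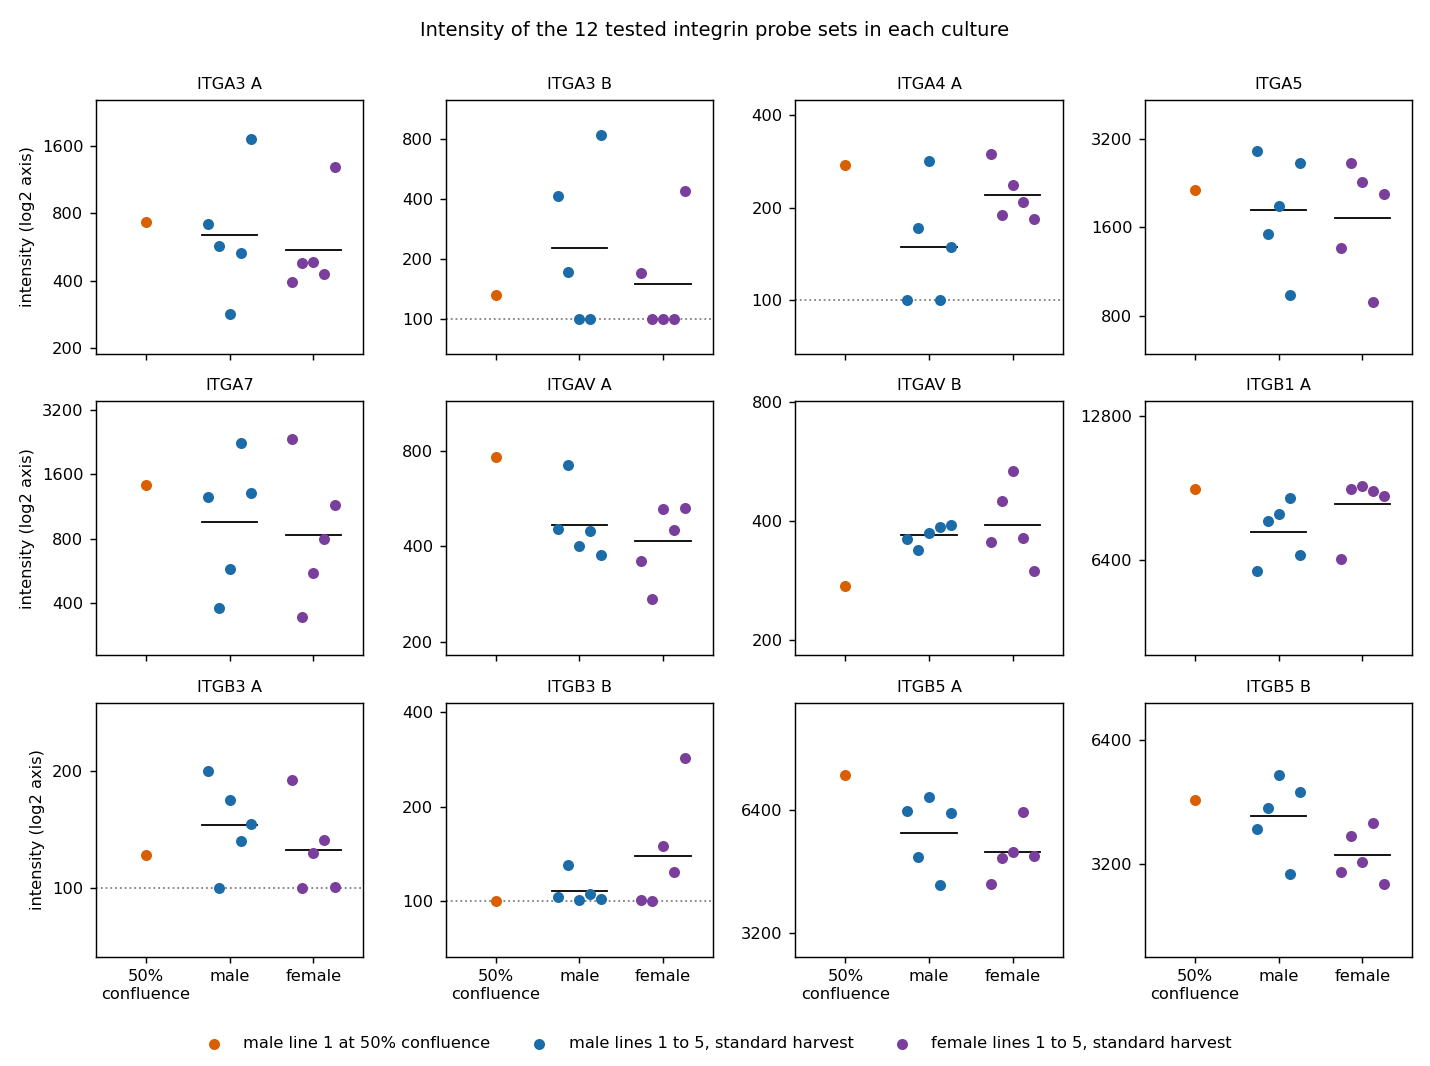
Intensity (log2 axis) of each of the 12 tested integrin probe sets in the 50% confluence culture, the 5 male and the 5 female standard lines; points are cultures, in line order from left to right, bars are the means of log2 values in each sex, and the dotted line is the floor of 100. The ITGB1 points lie between 6088 and 9137, whereas those of ITGA7 reach between 344 and 2336.

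The spread of the subunits between lines was therefore unequal. The median SD of log2 intensity over the 10 standard lines was 0.42 for the 12 integrin probe sets and 0.43 for all 7333 tested, and 6 of the 12 were above the latter. Those 6 were the probe sets of ITGA3, ITGA7, ITGA5 and ITGA4 and ITGB3 probe set B. The probe sets of ITGAV, ITGB1 and ITGB5 and the other of ITGB3 were below it. Values at the floor shrink the SD of ITGA4, ITGB3 and ITGA3 probe set B by an unknown amount.

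**Figure D2:**
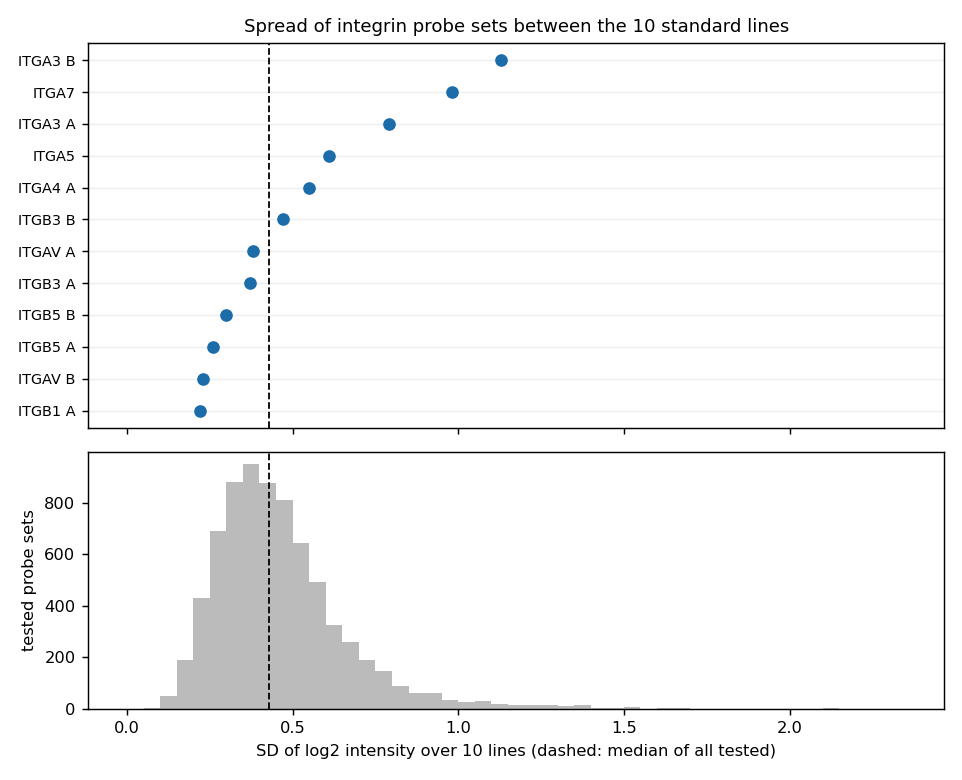
Upper panel, SD of log2 intensity over the 10 standard lines for each tested integrin probe set; lower panel, the number of tested probe sets of the array by SD, with the median of all tested dashed in both. ITGB1 lies at 0.22, ITGA7 at 0.98 and ITGA3 probe set B at 1.13, against a median of 0.43.

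The first comparison asked whether expression differed between male and female lines at equal age. With limma, 0 of the 12 integrin probe sets passed, each with an adjusted p of 1, and 0 had an unadjusted p under 0.05. Over all 7333 probe sets, 0.0273% passed (2 probe sets), and 171 had an unadjusted p under 0.05. The male and female ranges overlapped for all 12, and failed to overlap for 0.286% of all tested. The median difference, male minus female, was 0.17 on the log2 scale for the 12 and 0 for all tested, with 8 of the 12 positive.

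The lowest p was that of ITGA4 probe set A, with an intensity of 161 ± 75.1 in male lines and 224 ± 47.6 in female lines (SD, n = 5 each). Its log2 difference in limma was -0.57 ± 0.32 (SE; unadjusted p = 0.0952, adjusted p = 1), and its male range enclosed all female values but the highest. With male lines 1 and 4 at the floor the estimate rests in part on bounds, and it was -0.079 with the floor at 200. ITGB5 by probe set B averaged 4271 ± 859 in male lines and 3392 ± 485 in female lines (SD, n = 5 each), a log2 difference of 0.32 ± 0.20 (SE), and by probe set A the difference was 0.16 ± 0.20. ITGB1 averaged 7394 ± 1045 in male lines and 8445 ± 1137 in female lines (SD, n = 5 each), a log2 difference of -0.19 ± 0.19 (SE).

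The remaining estimates were 0.61 ± 0.56 and 0.22 ± 0.41 (log2, SE) for ITGA3 probe sets B and A, 0.21 ± 0.45 for ITGA7 and 0.08 ± 0.32 for ITGA5. They were 0.17 ± 0.28 and -0.09 ± 0.25 for ITGAV probe sets A and B, and 0.21 ± 0.25 and -0.37 ± 0.26 for ITGB3 probe sets A and B. The probe sets of ITGAV, and those of ITGB3, thus had opposite signs. Single lines weighed on several of these: the ITGA3 differences were 0.14 for probe set B and -0.11 for probe set A without male line 5, and that of ITGB3 probe set B was -0.11 without female line 5. Half-widths of the 95% confidence intervals ran between 0.41 for ITGB1 and 1.21 for ITGA3 probe set B, so the data leave room for differences of about that size around each estimate.

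The second comparison asked whether expression changed with the age of the animal at equal sex. With limma, 0 of the 12 probe sets passed (each adjusted p = 0.999), as did 0% of the 7333 tested. At an unadjusted p under 0.05 there was 1 of the 12, against 251 of the 7333.

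That probe set was the one of ITGA7. In male lines its intensity was 380 at 2 years, 1249 at 4, 577 at 12, 2246 at 17 and 1310 at 19 years. In female lines it was 344 at 2 years, 554 at 4, 2336 at 9, and 795 and 1155 at 20 years. The lowest value of each sex was that of its youngest animal, but the female maximum was at 9 years. The slope was 0.68 ± 0.31 on the log2 scale per 10 years (SE; 95% interval 0.02 to 1.34; limma unadjusted p = 0.0444, adjusted p = 0.999). It lay between 0.49 and 0.86 with any 1 line left out.

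The ITGA3 slopes were 0.39 ± 0.28 (set A) and 0.42 ± 0.39 (set B) log2 per 10 years (SE). The highest lines by probe set A were from animals aged 19 and 20 years, but the other 20-year-old, female line 4, read 429. Without male line 5 the slopes were 0.14 for probe set A and 0.06 for probe set B. ITGA5 had a slope of -0.33 ± 0.22, with its lowest values in animals of 17 and 20 years and high values in others of 19 and 20 years. The slopes of the other 8 probe sets lay between -0.13 and 0.18, those of ITGB1 and ITGB5 among them between -0.03 and 0.06.

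**Figure D3:**
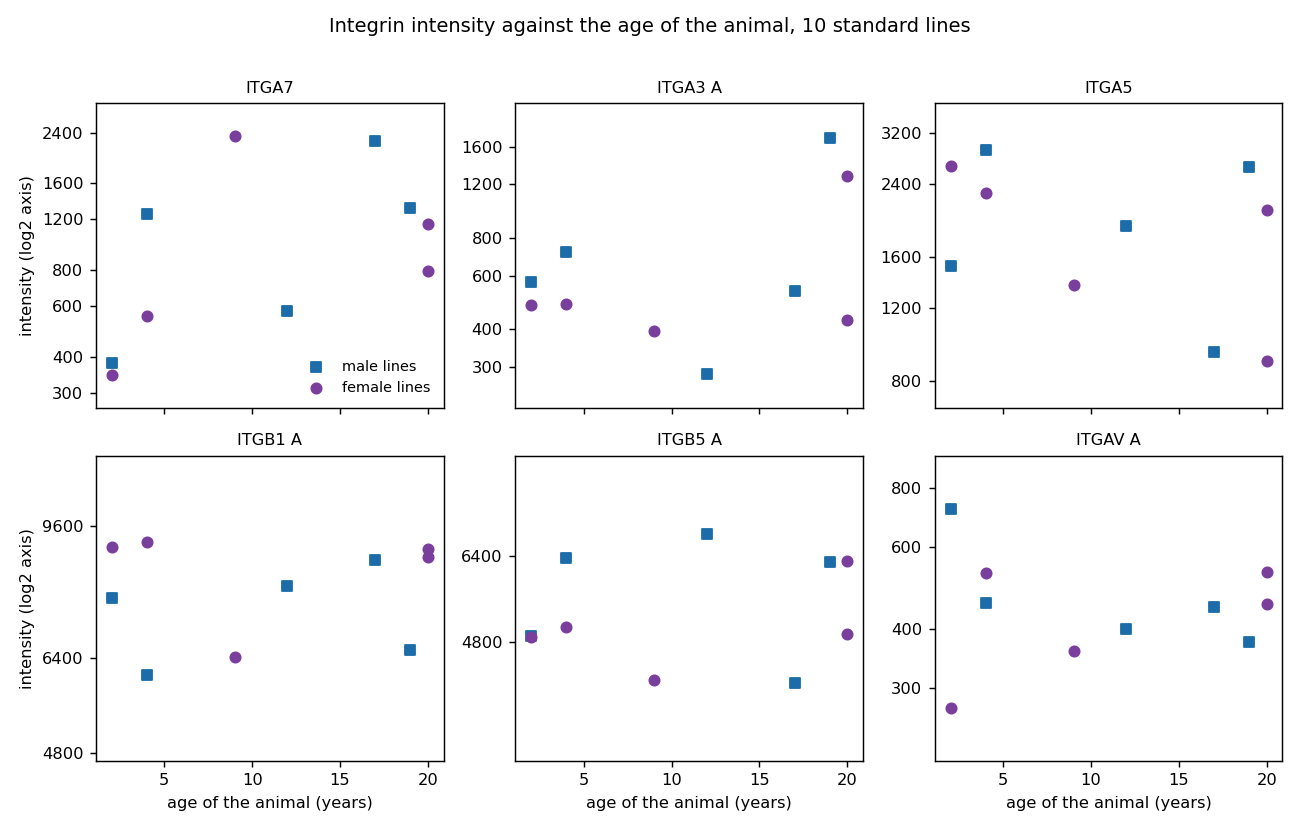
Intensity (log2 axis) of 6 integrin genes, probe set A of each where there are several, against the age of the animal in years; squares are male and circles female standard lines, 1 point per line. ITGA7 is lowest at 2 years in both sexes (380 and 344) and reaches its maximum of 2336 at 9 years, whereas ITGB1 stays between 6088 and 9137.

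A further fit tested whether the age slope differed between the sexes. None of the 12 integrin probe sets passed with limma (adjusted p between 0.973 and 0.998), 0 had an unadjusted p under 0.05, and 0.0136% of all tested passed (1 probe set, with 355 at an unadjusted p under 0.05). The lowest p was that of ITGAV by probe set A, with a male minus female slope of -0.63 ± 0.37 log2 per 10 years (SE; unadjusted p = 0.111). By probe set B the difference of the slopes was 0.42 ± 0.34, of the opposite sign. ITGB3 by probe set B had -0.54 ± 0.35, with female line 5, aged 20 years, holding its highest value.

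The third comparison set the 50% confluence culture of male line 1 against the standard culture of the same line. There was 1 culture per state, so the difference has no replicate check and no test. Both cultures were above the floor for 10 integrin probe sets, of which 6 were higher at 50% confluence and 4 lower. None of the 10 was over 2-fold higher, against 4.88% of 6147 probe sets, and 1 was over 2-fold lower, against 4.75%. The median absolute log2 difference was 0.42 for the 10 and 0.36 for all.

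The ITGA3 probe sets did not move together. By probe set B the intensity was 132 at 50% confluence against 413 in the standard culture, 3.13-fold lower, and 17 of the 45 pairs of standard lines were farther apart than that. By probe set A it was 735 at 50% confluence against 720 in the standard culture, a log2 difference of 0.03. The decrease over 2-fold was therefore seen by 1 of the 2 probe sets drawn from the same source sequence.

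ITGB1 was 9020 at 50% confluence against 6088 in the standard culture, a log2 difference of 0.57, and 1 of the 45 pairs of standard lines differed by more. The standard culture was the lowest of the 10 lines for this gene, and the 50% confluence value lay within their range. ITGB5 was 7811 at 50% confluence against 6365 in the standard culture by probe set A (0.30 log2) and 4582 against 3890 in the same order by probe set B (0.24 log2), and 24 and 30 of the 45 pairs were farther apart. With quantile normalization these differences were 0.10 and 0.12 log2. The 7811 was above all standard lines.

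ITGAV again gave opposite signs. By probe set A it was 766 at 50% confluence against 455 in the standard culture (0.75 log2), above all standard lines. By probe set B it was 274 at 50% confluence against 359 in the standard culture (-0.39 log2), below all standard lines. In all, 3 of the 10 integrin probe sets fell beyond the standard lines' range, as did 17.5% of all.

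The remaining alpha subunits and ITGB3 stayed within the range of the lines. ITGA5 was 2138 at 50% confluence against 2902 in the standard culture (-0.44 log2), ITGA7 was 1423 against 1249 (0.19 log2) and ITGB3 by probe set A was 122 against 200 (-0.71 log2). By probe set B, ITGB3 was at the floor at 50% confluence and 103 in the standard culture. Its probe set C went the other way, with 134 at 50% confluence and the floor in the standard culture. ITGA4 by probe set A was 275 at 50% confluence and at the floor in the standard culture, and so at least 2.75-fold higher. In the standard lines this probe set read between the floor and 300. ITGA4 probe set B went the other way. It was at the floor at 50% confluence and 127 in the standard culture, and so at least 1.27-fold lower. The 18S control signal, the ACTB control ratio (0.669 against 1.42) and the lower floor set the 50% confluence array apart from that of the standard culture. Their part in these differences was not tested.

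**Figure D4:**
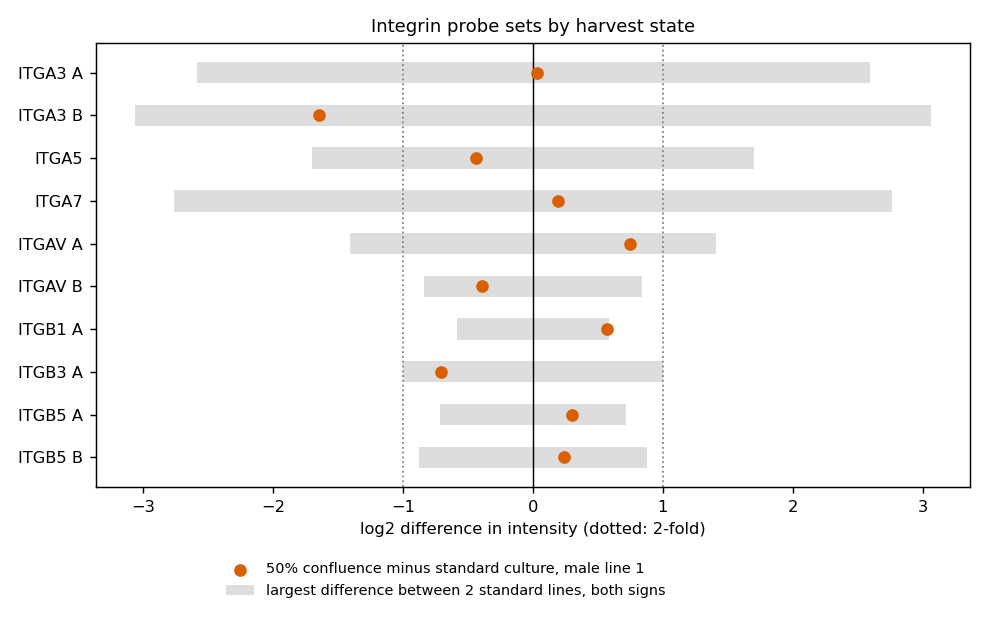
Log2 difference in intensity, 50% confluence minus standard culture of male line 1, for the 10 integrin probe sets above the floor in both (points); grey bars span the largest difference between any 2 of the 10 standard lines, drawn in both signs, and dotted lines mark 2-fold. ITGA3 probe set B lies at -1.65, beyond 2-fold, and ITGB1 at 0.57 lies near the end of its bar.

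Subunits that form a receptor, or a subunit and a ligand of its receptor, were then correlated over the 10 standard lines, with the probe set of highest mean standing for each gene. Of 16 pairs listed, 13 had both genes tested, 7 of heterodimer partners and 6 of a subunit and a ligand. With a two-sided permutation test, 0 of the 13 pairs passed after Benjamini-Hochberg adjustment over them, with a lowest adjusted p of 0.174 for Pearson's r and 0.336 for Spearman's rho. At an unadjusted p under 0.05 for r there was 1 pair.

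That pair was ITGA4 and VCAM1, a cell surface protein that the receptor of ITGA4 and ITGB1 binds on other cells. VCAM1 had an intensity of 248, 329, 100, 1128 and 342 in male lines 1 to 5 and 141, 152, 185, 100 and 100 in female lines 1 to 5. The highest VCAM1 value, in male line 4, stood where ITGA4 was at the floor, and VCAM1 was at the floor in male line 3, the highest male line for ITGA4. Pearson's r was -0.74 (permutation p = 0.0133, adjusted p = 0.174) and Spearman's rho was -0.71 (permutation p = 0.0258, adjusted p = 0.336; n = 10). Without male lines 1 and 4, which were farthest from the ITGA4 median, r was -0.58. In 5 of the 10 lines 1 or the other gene read the floor, so the relation rests in part on values that are bounds.

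ITGA5 and FN1, the fibronectin gene, had r = 0.54 (permutation p = 0.103, adjusted p = 0.655) and rho = 0.37 (permutation p = 0.295, adjusted p = 0.878; n = 10). FN1 ran between 10369 in male line 4 and 20902 in male line 5. Without male line 4 and female line 4, the farthest from the ITGA5 median, r was 0.62. It was 0.31 without male line 4 alone and 0.80 without female line 4 alone, and 0.158 over all 10 lines with quantile normalization. ITGA7 and LAMA2, a laminin chain gene, had r = 0.44 (permutation p = 0.202, adjusted p = 0.655) and rho = 0.44 (permutation p = 0.203, adjusted p = 0.878; n = 10). Its r was 0.15 without female line 1 and 0.71 without male line 4.

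ITGB1 did not track its alpha partners closely. Its r was -0.46 with ITGA7, -0.30 with ITGA5, -0.26 with ITGA3, 0.19 with ITGA4 and 0.09 with ITGAV (n = 10), with adjusted permutation p between 0.655 and 0.996. With quantile normalization r was -0.581 for ITGA3. ITGAV, by probe set A, had r = -0.27 with ITGB3 and r = -0.05 with ITGB5. Without male line 2 and female line 2, the extremes of ITGAV, the r of ITGAV was 0.66 with ITGB1 and -0.69 with ITGB3, so both rest on which lines are included. The other ligand pairs had r = 0.01 for ITGA3 with the laminin gene LAMA5, -0.26 for ITGAV with the fibrillin gene FBN1 and 0.00 for ITGB3 with the thrombospondin gene THBS1. In these lines LAMA5 read at most 159 and ITGB3 probe set A at most 200, and both were at the floor in some. The r of the pairs with LAMA5 or ITGB3 thus rest in part on bounds.

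**Figure D5:**
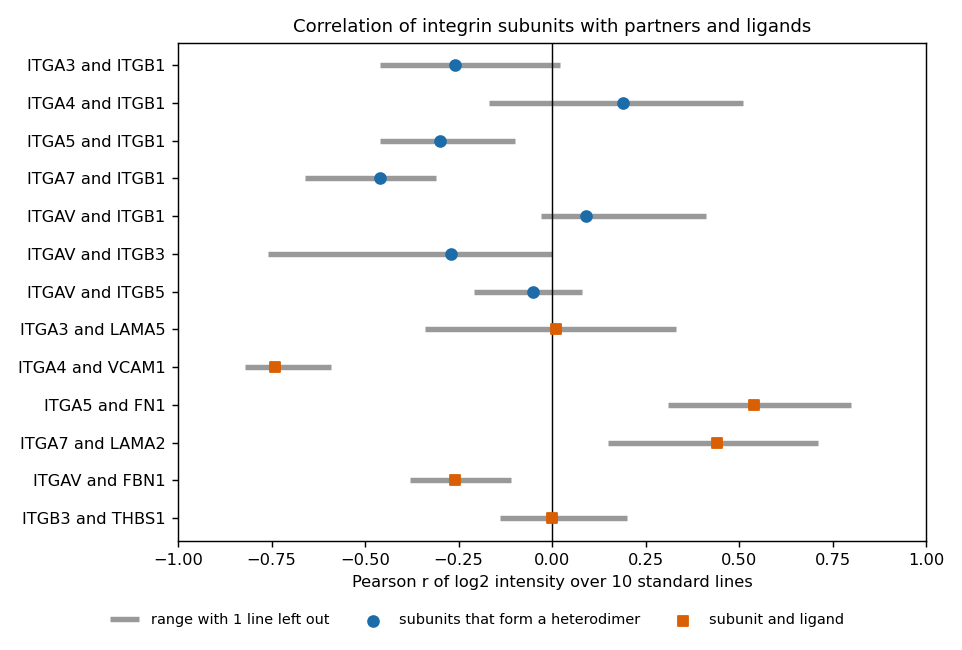
Pearson r of log2 intensity over the 10 standard lines for 7 pairs of subunits that form a heterodimer (circles) and 6 pairs of a subunit and a ligand (squares); grey bars show the range of r with 1 line left out. ITGA4 and VCAM1 lie at -0.74 and ITGA5 and FN1 at 0.54, and the bars of 7 pairs reach or cross 0.

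Among the 5359 other tested genes, those most like each subunit over the 10 lines were taken by Pearson's r, which here only describes the choice. For ITGA5 they were EIF4EBP1 (r = 0.95), a repressor of cap-dependent translation, and SLC1A5 (0.93), a glutamine transporter. EIF4EBP1 read 1376 in male line 4 and 1841 in female line 4, its lowest values, as ITGA5 did. For ITGA7 they were PSMB9 (0.92) and PSMB8 (0.91), both subunits of the immunoproteasome. PSMB8 was 606 in female line 1 and 562 in male line 4, and lowest in female line 2 (104), the same extremes as for ITGA7.

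For ITGA3 the most similar genes were COL7A1 (0.93), the collagen of anchoring fibrils, and the ribosomal protein gene RPS16 (0.90). COL7A1 read 1682 in male line 5 and 1360 in female line 5 and 164 to 337 in the other lines. For ITGA4 they were P4HA2 (0.90), a collagen prolyl hydroxylase subunit, and CYCS (0.84), the cytochrome c gene. For ITGB1 they were the proteasome subunit gene PSMA7 (0.91) and the kinase gene TAOK3 (0.91), for ITGB5 EIF5A (0.87), a translation factor gene, and GCN1 (0.84), for ITGAV AFF1 (0.89) and CLPX (0.84), and for ITGB3 ARHGEF7 (0.88) and TCTA (0.87). With quantile normalization r was 0.685 for RPS16, 0.77 for PSMA7 and 0.789 for TAOK3. CLPX read at most 155 and was at the floor in male line 3 and female lines 1 and 2. PSMA7 and TAOK3 were at the floor in female line 1, and TAOK3 read at most 288. PSMB9, named above for ITGA7, was at the floor in female line 2. The r of these genes rest in part on bounds, as do those with ITGA4 and ITGB3, which were at the floor in some lines. For ITGAV and ITGB3 the likeness is to probe set A. Probe set B ordered the lines differently (r = -0.30 and -0.54 with probe set A).

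Other genes of the adhesion pathway were counted in 4 lists, in which 1 probe set stood for each gene. By sex, by age and by sex and age together, 0 genes passed in any list, of 6 other integrin subunits, 33 ligands, 32 adaptors and signalling proteins and 16 membrane partners tested. By harvest state the gene-level share was 4.71% over 2-fold higher and 4.67% over 2-fold lower, of 4497 genes with both cultures above the floor.

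Of 30 ligand genes with both cultures above the floor, 2 were over 2-fold higher at 50% confluence and 7 over 2-fold lower. The basement membrane collagen gene COL4A1 had an intensity of 346 at 50% confluence against 2491 in the standard culture (-2.85 log2). Its partner chain COL4A2 differed by -1.98 log2, and TNC, the tenascin C gene, read 427 at 50% confluence against 2503 in the standard culture (-2.55 log2). The 2 higher ones, named for this count, were THBS1 (1.53 log2) and MFGE8 (1.23 log2), genes of secreted integrin ligands. Of these 9 genes, 3 fell beyond the standard lines: THBS1 read 19814 at 50% confluence against at most 10032 in the lines, the basement membrane gene NID1 208 against at least 475, and the collagen VI gene COL6A3 2025 against at least 2712. The other 6, COL4A1 (252 to 3315 in the lines) and TNC (340 to 6482) among them, stayed inside, and NID1 and COL6A3 were named after their values were seen.

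Of 31 adaptor genes, 2 were over 2-fold higher and 0 lower. PTK2, the focal adhesion kinase gene, read 269 at 50% confluence against 108 in the standard culture (1.32 log2). The 108 was near the floor and the lowest of the 10 lines, and 269 lay inside their range, which reached 363. ACTN4, an actin cross-linker of adhesions, read 12996 against 6205 in the standard culture (1.07 log2), above the highest standard line of 8786. Next in size was RAP1A, a small GTPase gene, at -0.77 log2. It read 169 at 50% confluence against 289 in the standard culture, just below the lowest standard line of 173.

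Of 16 membrane partners, 1 was over 2-fold higher and 2 over 2-fold lower. SDC1, the syndecan 1 gene, read 2659 at 50% confluence against 1063 in the standard culture (1.32 log2), above the highest standard line of 1569. PLAUR, the urokinase receptor gene, read 752 at 50% confluence against 2094 in the standard culture (-1.48 log2), which was the highest of the lines. LGALS3, the galectin 3 gene, read 342 against 695 in the standard culture (-1.02 log2), below all standard lines. Of 5 other integrin subunits, 0 passed 2-fold, with ITGA6 at 0.85, ITGA2B at 0.68 and ITGAX at -0.67 log2.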

How the data were processed

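The deposited table held intensities as whole numbers on a linear scale, 1 per probe set and culture. The sources used here do not say how the authors summarised and scaled them. Gene symbols came from the platform annotation of 2016, in which 10943 probe sets had 1 symbol, 545 several and 1070 none. The 9 symbols all occur in a bonobo gene table (NHGRI_mPanPan1-v2.0_pri), used for names only. Labelled sex gave the groups, and accession order the line numbers. The highest correlation between 2 arrays was 0.942, so none was a duplicate.

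The deposited scaling was kept, values were floored at 100 and log2 was taken. The 7333 of 12558 non-control probe sets above 100 in at least 5 of 11 arrays were tested. Sex and age (per 10 years) were fitted jointly over the 10 standard lines in limma 3.58.1 (R 4.3.3; lmFit and eBayes, allowing for a trend with intensity), and their product in a further fit. P-values are two-sided and adjusted by Benjamini-Hochberg over all 7333, with a threshold of 0.05. They measure the spread between lines with 1 culture each. Harvest state has 1 culture per state and no test. Correlations used 100000 permutations (Python 3.11.15, scipy 1.17.1), or all of them where 1 line was left out. The code was tested on simulated data.

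Where 1 value stands for a gene, it is that of the probe set with the highest mean log2. Named genes are all members, the 2 most like each by r, and the 3 largest harvest differences of each pathway list. The genes, lists and tests were chosen with earlier results of these data known. Alternatives were quantile normalization, median centring, a floor of 200, a pseudocount of 50, other filters and variance models, other codings of sex and age, and leaving out each line. The number of arrays limits the precision.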

Additional observations from a re-analysis of the deposited data

Results flagged for a closer look

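In each sex, the 5 lines were checked for 1 that stood far from the rest, over 24 groups (12 probe sets in 2 sexes). With Dixon's critical value of 0.71 for the gap as a share of the range, both on the log2 scale, chance gives about 1 in 20 groups, and 3 were found. ITGA3 probe set A read 1281 in female line 5, against 394 to 484 in the other female lines, a gap of 0.826 of the range. ITGB1 probe set A read 6430 in female line 1, against 8715 to 9137 in the other female lines, a gap of 0.865. ITGB3 probe set B read 131 in male line 2, against 101 to 106 in the other male lines, a gap of 0.814 among values close to the floor.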

How the results depend on the processing

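No integrin probe set passed by sex, age or sex by age under any alternative with limma (lowest adjusted p 0.999, 0.719 and 0.472), and 0 pairs passed. With 1 line left out, 0 integrin probe sets passed in each comparison and 5 to 6 of 12 had an SD above the median. No paired analysis was made by sex or age, since the labels pair no line with another. Probe sets of the whole array called by sex numbered 2, but 1 with the floor at 200, a pseudocount of 50 or no filter, 0 when only those above the floor in all arrays were kept, 3 with no intensity trend, with array weights or with sex alone, and 1 to 2 with 1 line left out. By age they numbered 0, but 1 with no filter. By sex and age together they numbered 1, but 0 with quantile normalization, median centring, no filter, no intensity trend or array weights, and 0 to 1 with 1 line left out. With the floor at 200, the integrin probe sets over 2-fold lower by harvest state numbered 0 and not 1, since the 50% confluence reading of 132 lies under that floor, and those of the array 167 higher and 150 lower. With a pseudocount of 50, 192 were lower. The cause of the other changes was not tested. Array weights gave sex differences of 0.349 for ITGA7, 0.262 for ITGAV probe set A and 0.358 for ITGB3 probe set A, and the floor at 200 a harvest difference of 0 for ITGB3 probe set A. Estimates that changed sign were these. Age slopes (log2 per 10 years) were 0.032 with array weights for ITGA4, 0.067 with array weights for ITGAV probe set A and -0.011 with quantile normalization for ITGB1. With log2 of age the ITGA4 slope was 0.003 per unit of log2 age. Sex by age for ITGB5 probe set B was 0.023 with quantile normalization and 0.072 with array weights, and r of ITGAV with ITGB1 was -0.02 with quantile normalization. With 1 line left out, the sex difference ran -0.109 to 0.529 for ITGA3 probe set A, -0.16 to 0.292 for ITGA5, -0.025 to 0.619 for ITGA7, and -0.028 to 0.279 and -0.174 to 0.014 for ITGAV (sets A, B). The age slope ran -0.168 to 0.029 for ITGA4, -0.179 to 0.144 for ITGAV probe set A, -0.01 to 0.077 for ITGB1, -0.116 to 0.106 and -0.052 to 0.289 for ITGB3 (sets A, B), and -0.012 to 0.135 and -0.1 to 0.048 for ITGB5 (sets A, B). Sex by age ran -0.785 to 0.485 and -1.611 to 0.18 for ITGA3 (sets A, B), -0.205 to 0.318 for ITGA4, -0.15 to 0.708 for ITGA5, -0.183 to 0.771 for ITGA7, -0.056 to 0.203 for ITGB1, -0.36 to 0.291 for ITGB3 probe set A, and -0.318 to 0.037 and -0.167 to 0.178 for ITGB5 (sets A, B). The r ran -0.455 to 0.018 for ITGA3 with ITGB1, -0.174 to 0.514 for ITGA4 with ITGB1, -0.031 to 0.411 for ITGAV with ITGB1, -0.765 to 0.005 for ITGAV with ITGB3, -0.209 to 0.084 for ITGAV with ITGB5, -0.344 to 0.326 for ITGA3 with LAMA5 and -0.143 to 0.205 for ITGB3 with THBS1. Probe sets at the floor give only bounds.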
